A study of Komagataella pastoris with 3 samples.

Results

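The genes described here are 2 pairs of paralogues of central carbon metabolism in Pichia pastoris GS115, FBA1-2 with FBA1-1 and TAL1-2 with TAL1-1. By these names FBA1-2 and FBA1-1 encode fructose bisphosphate aldolases, and TAL1-2 and TAL1-1 encode transaldolases. They were chosen by locus tag, PAS_chr1-1_0319 for FBA1-2, PAS_chr1-1_0072 for FBA1-1, PAS_chr2-2_0338 for TAL1-2 and PAS_chr2-2_0337 for TAL1-1. The rule that picks them holds no measured value, but the genes were chosen with earlier results of these data known. All 4 were among the 5040 genes of the deposited table, and all 4 were among the 5028 genes that reached 1 FPKM in some library. The table gives tags alone, so the gene names and the roles of the copies come from the choice of genes and could not be checked against an annotation of this strain.

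Messenger RNA was measured by RNA sequencing after 24, 36 and 48 h of shaking culture in YPD, a rich yeast culture medium with glucose as its sugar. Each time point was 1 library of the strain GS115, a histidine auxotroph widely used as an expression host, labelled wild-type and inoculated from a log-phase culture. All 3 groups shared the same strain, medium and temperature of 30°C. No methanol is named for any of them, and per the labels they differed in culture time. The code in the sample title begins with D for the 24 h library and with S for the 36 and 48 h libraries. The labels do not say what these letters mean, and anything they mark cannot be told apart from culture time. Values are FPKM, which corrects a gene's sequenced fragments for its length and for the size of the library, so that levels of different genes can be compared.

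Aldolase splits fructose bisphosphate into the triose phosphates in glycolysis, and the same enzyme makes it from them in gluconeogenesis. Transaldolase exchanges carbon between the sugar phosphates of the non-oxidative pentose phosphate pathway, and so links that pathway to glycolysis. Methylotrophic yeasts have a further cycle, housed in peroxisomes, in which formaldehyde made from methanol is joined to xylulose phosphate, and the acceptor is rebuilt by reactions of the aldolase and pentose phosphate kind. Pichia pastoris has second copies of several of these enzymes. FBA1-2 and TAL1-2 are the copies assigned to the peroxisomal cycle, and FBA1-1 and TAL1-1 are the housekeeping copies.

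With 1 library at each time there is no replicate error and no p-value, and every difference is one between single libraries. FPKM summed to between 760684 and 871921 per library, and the median gene lay between 48.2 and 54.3 FPKM. The number of reads per library is not known, so no counting interval can be given. A gene is called higher or lower where log2(FPKM + 1) differs by at least 1, a 2-fold rule of size and not a test. This scale understates changes of low genes such as FBA1-2 and TAL1-2. The first interval is 36 h against 24 h, the second 48 h against 36 h, and the whole course 48 h against 24 h, so any 2 of these comparisons share a library. The median gene differed by -0.21 in the first interval, 0.03 in the second and -0.25 over the whole course.

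The copies of the methanol cycle, FBA1-2 and TAL1-2, had less than the median gene in every library and more in each later library. The 24, 36 and 48 h libraries gave FBA1-2 levels of 8.23, 18.1 and 39.3 FPKM. TAL1-2 had levels of 9.16, 20.4 and 50.8 FPKM in the same libraries. Both genes thus started among the lowest genes of the table, with 2.43% of genes lower than FBA1-2 and 3.04% lower than TAL1-2 at 24 h, and moved up through the ranks. At 48 h, 39.9% of genes were lower than FBA1-2 and 49.3% were lower than TAL1-2, which put TAL1-2 next to the median gene of 51.4 FPKM.

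On the log2 scale FBA1-2 was higher by 1.05 in the first interval and by 1.07 in the second. TAL1-2 was higher by 1.08 and 1.27 in the same intervals. Both genes passed the 2-fold rule in both intervals, most steps by little, as the limit of the rule is 1. With a pseudocount of 10 in place of 1 the steps were 0.63 and 0.81 for FBA1-2 and 0.67 and 0.999 for TAL1-2, all under the rule. In the first interval 2 of the 4 genes were thus higher and 0 lower, where 9.47% of all genes were higher and 19.4% lower. In the second interval 2 of the 4 were higher, where 13.5% of all genes were, and 2.59% of all genes were higher in both intervals. Over the whole course the FPKM of FBA1-2 was 4.77-fold higher and that of TAL1-2 5.55-fold higher, or higher by 2.13 and 2.35 on the log2(FPKM + 1) scale. Of all genes, 18.2% passed the 2-fold rule upwards over the whole course and 6.78% a 4-fold rule. A larger increase than that of FBA1-2 was seen in 302 genes, and a larger increase than that of TAL1-2 in 242.

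The housekeeping aldolase FBA1-1 was among the most abundant messengers of the culture until 36 h and far lower at 48 h. The 24, 36 and 48 h libraries gave FBA1-1 levels of 6098, 7021 and 1038 FPKM. It was the 10th most abundant gene at 24 h, the 8th at 36 h and the 97th at 48 h. Its share of total FPKM was 0.699%, 0.894% and 0.136% at the successive times. Such a value is relative to the other messengers of the library, so fewer cells holding a messenger and less of it per cell cannot be told apart. FBA1-1 differed by 0.20 in the first interval, within 2-fold, and by -2.76 in the second, a 6.77-fold lower FPKM. In the second interval 13% of all genes were at least 2-fold lower, and 65 genes fell further than FBA1-1. Over the whole course FBA1-1 differed by -2.55, where 28% of all genes were lower under the 2-fold rule and 9.9% under a 4-fold rule. The profile of FBA1-1, within 2-fold at first and then at least 2-fold lower, was shared by 8.39% of all genes.

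The housekeeping transaldolase TAL1-1 stayed high throughout. The 24, 36 and 48 h libraries gave TAL1-1 levels of 1399, 1832 and 1097 FPKM. Of all genes, 97.7%, 99.1% and 98.2% were lower than TAL1-1 in these libraries. Its differences were 0.39 in the first interval, -0.74 in the second and -0.35 over the whole course, all within 2-fold. The share of all genes within 2-fold was 71.2% in the first interval, 73.5% in the second, 53.8% over the whole course and 43.9% in all 3 comparisons. Like FBA1-1, TAL1-1 had its highest value at 36 h, but its difference in the second interval was smaller in size than the -2.76 of FBA1-1.

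**Figure D1:**
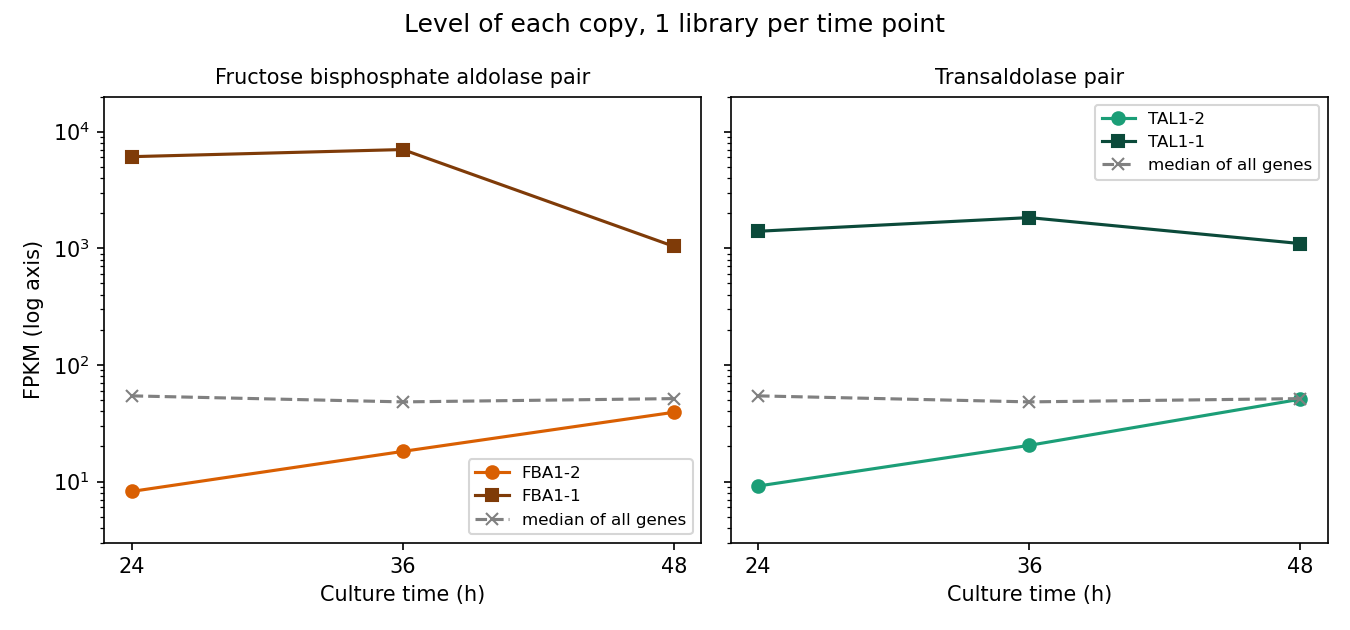
FPKM on a log axis against culture time in hours, with FBA1-2 and FBA1-1 on the left, TAL1-2 and TAL1-1 on the right, and the median of all genes as a dashed line. Each point is 1 library and has no error bar, as there was 1 library per time point. FBA1-2 and TAL1-2 lie below the median gene at all 3 times and approach it by 48 h, where FBA1-1 has dropped to 1038 FPKM, close to TAL1-1 at 1097 FPKM.

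Copies of the same class were compared across the pairs. The methanol cycle copies had like levels in every library, TAL1-2 being 1.11, 1.13 and 1.29 times FBA1-2 at the successive times. The housekeeping copies did not keep such a ratio. TAL1-1 was 0.229 times FBA1-1 at 24 h and 0.261 times at 36 h, and 1.06 times FBA1-1 at 48 h. In order of level the genes were FBA1-1, TAL1-1, TAL1-2 and FBA1-2 at 24 and 36 h, and TAL1-1, FBA1-1, TAL1-2 and FBA1-2 at 48 h. The spread between cultures is not known, so differences as small as those between TAL1-2 and FBA1-2, or between TAL1-1 and FBA1-1 at 48 h, cannot be told from library variation.

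Within each pair the housekeeping copy held nearly all of the signal, and the share of the methanol cycle copy increased with time. A ratio taken within a library does not depend on how libraries are scaled to each other, apart from the effect of the pseudocount. At the successive times FBA1-2 made up 0.135%, 0.258% and 3.65% of the summed aldolase FPKM. TAL1-2 made up 0.651%, 1.10% and 4.43% of the summed transaldolase FPKM. Put the other way, FBA1-1 was 741, 387 and 26.4 times FBA1-2 at the successive times, and TAL1-1 was 153, 89.6 and 21.6 times TAL1-2. The pairs thus lay far apart in this ratio at 24 h and close together at 48 h.

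The log2 ratio of FBA1-2 over FBA1-1, on FPKM + 1, was -9.37, -8.52 and -4.69 at these times. For TAL1-2 over TAL1-1 it was -7.11, -6.42 and -4.41. The ratios changed by 0.85 in the aldolase pair and 0.69 in the transaldolase pair in the first interval, and by 3.83 and 2.01 in the second. Over the whole course the changes were 4.68 for the aldolase pair and 2.70 for the transaldolase pair. With a pseudocount of 10 they were 3.98 and 2.01, and the log2 ratios at 24 h were -8.39 and -6.20.

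These ratio changes were made up differently in the pairs. Over the whole course the aldolase ratio changed by 2.13 through the higher FBA1-2 and by 2.55 through the lower FBA1-1, or 45.4% and 54.6% of the change. The transaldolase ratio changed by 2.35 through TAL1-2 and by 0.35 through TAL1-1, or 87.1% and 12.9%. In the first interval both copies of each pair had a higher value at 36 h, by 1.05 for FBA1-2 and 0.20 for FBA1-1, and by 1.08 for TAL1-2 and 0.39 for TAL1-1. In the second interval FBA1-2 gave 28.0% of the aldolase change, and TAL1-2 gave 63.3% of the transaldolase change. Unlike the ratio, its split between the copies depends on how libraries are scaled. Under the median-of-ratios scaling described below, FBA1-2 differed by 2.34 and FBA1-1 by -2.32 over the whole course. TAL1-2 then differed by 2.57 and TAL1-1 by -0.11. Which aldolase copy gave the larger part over the whole course is thus not settled.

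**Figure D2:**
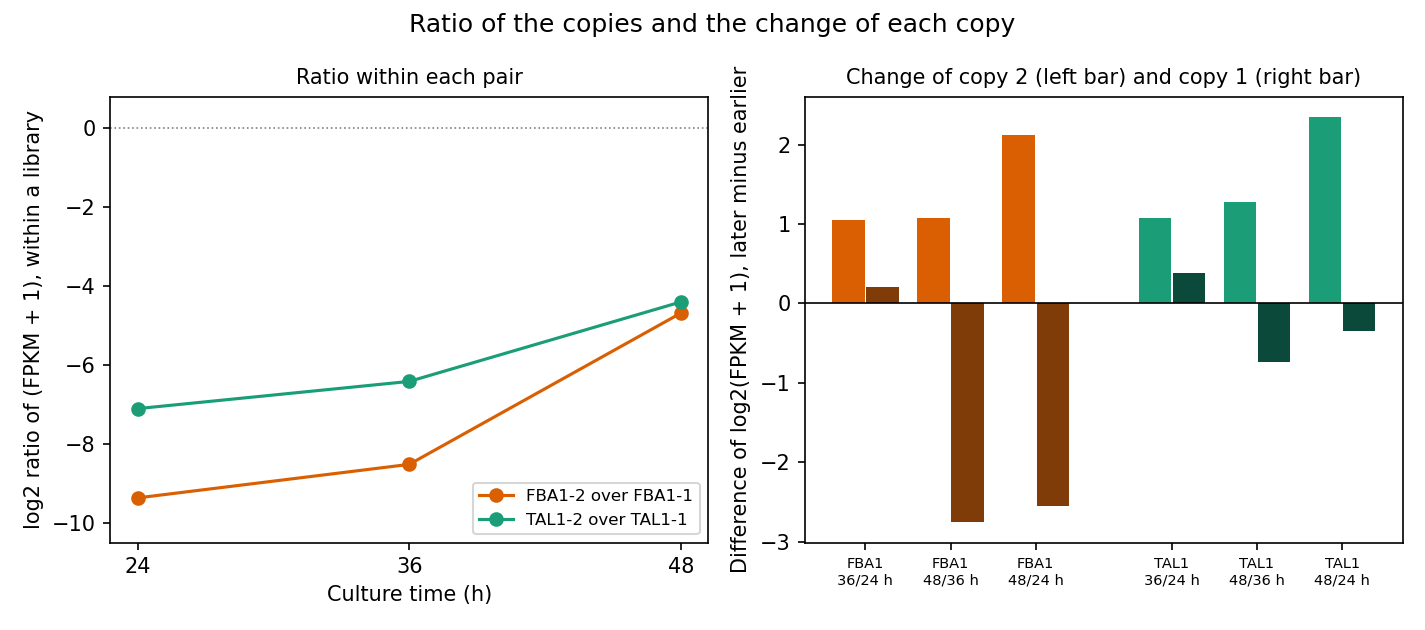
Left, the log2 ratio of FPKM + 1 of copy 2 over copy 1 against culture time in hours, where 0 would be equal levels. Right, the difference of log2(FPKM + 1) of copy 2 (left bar) and copy 1 (right bar) of each pair in the 3 comparisons, later minus earlier. The ratios approach each other by 48 h, at -4.69 for aldolase and -4.41 for transaldolase, and the longest downward bars belong to FBA1-1.

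Since FBA1-2 and TAL1-2 were so much lower than their partners, the sum of each pair followed the housekeeping copy. The aldolase sum was 6106, 7039 and 1077 FPKM at the successive times, and the transaldolase sum was 1408, 1853 and 1148 FPKM. In the second interval the aldolase sum differed by -2.71 on the log2 scale and the transaldolase sum by -0.69. In that interval FBA1-2 gained 21.2 FPKM, which is 0.353% of the 5984 FPKM lost by FBA1-1, and TAL1-2 gained 30.4 FPKM, 4.14% of the 735 FPKM lost by TAL1-1.

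How the counting treated reads shared by the copies of a pair is not given in the sources used here, so the level of the low copy beside an abundant paralogue is uncertain. The part of such reads in the values was not tested. In the first interval both copies of each pair had higher values. In the second interval FBA1-2 was 2.17-fold higher in FPKM, while FBA1-1 was lower by 5984 FPKM. In the same interval TAL1-2 was 2.49-fold higher, while TAL1-1 was lower by 735 FPKM.

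Deposited scaling bears on the size of these values and on the split of each ratio change between the copies, but not on the ratios. Rescaling by the median of ratios, with each gene's geometric mean over the libraries as its base, shifts the median gene by 0.23 in both comparisons with 24 h. Under it FBA1-2 was higher by 1.27 and TAL1-2 by 1.30 in the first interval. Over the whole course FBA1-1 then differed by -2.32 and TAL1-1 by -0.11. All 4 genes kept their direction in all 3 comparisons under this scaling and under a trimmed-mean scaling. Each scaling is 1 factor per library and shifted the median gene by at most 0.25. This is less than the -0.35 of TAL1-1 over the whole course as deposited, so the kept directions add no support. That difference of TAL1-1 was -0.09 under the trimmed mean, and its direction cannot be told from library variation. Over all genes the split of calls moved, with 476 genes higher and 973 lower in the first interval as deposited, and 647 higher and 729 lower after median-of-ratios scaling. Over the whole course these counts were 914 and 1409 as deposited, and 1115 and 1137 after that scaling.

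The range of each gene over the 3 libraries, highest minus lowest log2(FPKM + 1), was set beside that of genes of like mean level, taken as 10 equal classes of all genes. FBA1-2 had a range of 2.13 and TAL1-2 one of 2.35, in a class whose other 502 genes had a median range of 1.02. A larger range than that of FBA1-2 was found in 13.5% of these genes, and a larger one than that of TAL1-2 in 10.2%. FBA1-1 and TAL1-1 were both in the highest class, where the median range of the other genes was 1.82. FBA1-1, with a range of 2.76, was exceeded by 30.1% of them, and TAL1-1, with 0.74, by 82.1%. Among abundant genes TAL1-1 was thus one of the steadier ones.

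Likeness of pattern was measured by the larger of 2 gaps, one in the change over the first interval and one in that over the second, among 4889 genes with a mean of at least 10 FPKM. It describes 3 libraries that all genes share. FBA1-2 and TAL1-2 were 0.20 apart, and TAL1-2 ranked 26th nearest to FBA1-2 among 4888 genes, while FBA1-2 ranked 15th nearest to TAL1-2. FBA1-1 and TAL1-1 were 2.02 apart. Of the genes, 16.8% were nearer to FBA1-1 than TAL1-1 was, and 81.7% were nearer to TAL1-1 than FBA1-1 was. FBA1-2 and FBA1-1 were 3.83 apart, and 97.0% of genes were nearer to FBA1-2 than its partner. TAL1-2 and TAL1-1 were 2.01 apart, and 64.2% of genes were nearer to TAL1-2 than its partner.

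**Figure D3:**
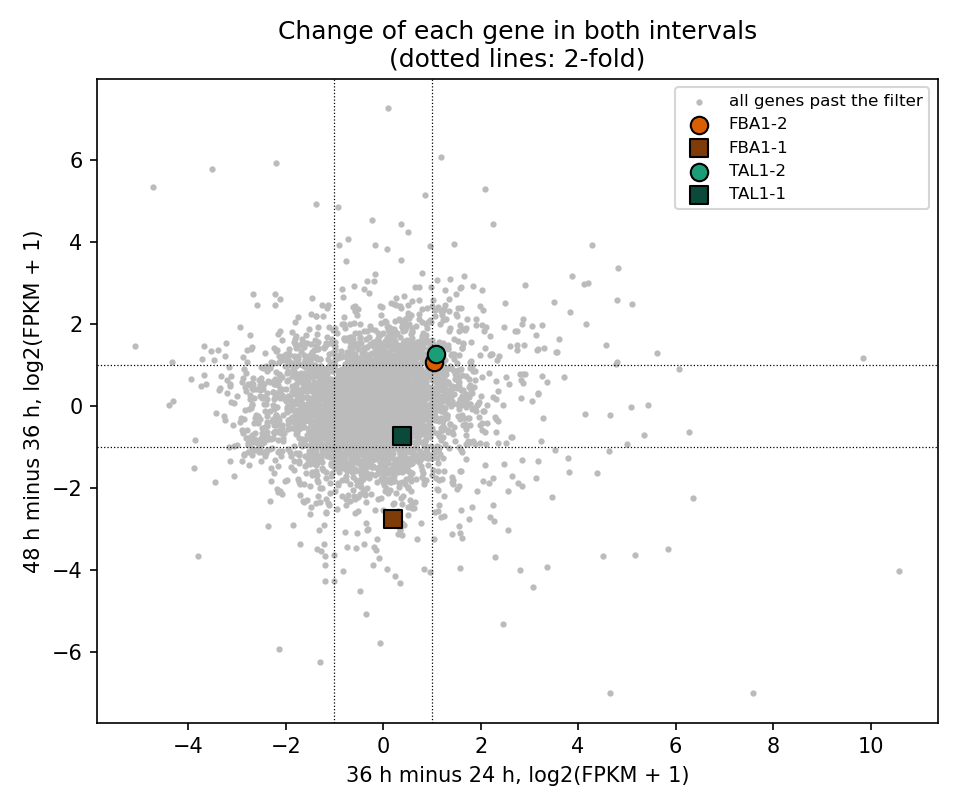
Difference of log2(FPKM + 1) for 36 h minus 24 h (x axis) and 48 h minus 36 h (y axis) of all 5028 genes past the filter (grey) and of the 4 genes. Dotted lines mark 2-fold. FBA1-2 and TAL1-2 lie beside each other at the corner of the field that is at least 2-fold higher in both intervals, TAL1-1 lies within the central square and FBA1-1 well below it.

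The pattern of TAL1-1 had the most like genes outside the 4, and that of FBA1-1 the fewest. Within 0.25 in both intervals there were 34 genes for FBA1-2, 23 for TAL1-2, 113 for TAL1-1 and 5 for FBA1-1. The nearest to FBA1-2 was PAS_chr2-1_0702, with 22.4, 47.4 and 97.2 FPKM at the successive times and a distance of 0.05. The nearest to TAL1-2 was PAS_chr4_0444, with 19.7, 41.6 and 99.4 FPKM and a distance of 0.04. The nearest to FBA1-1 was PAS_chr1-4_0367, with 902, 1173 and 160 FPKM and a distance of 0.18. The nearest to TAL1-1 was PAS_chr3_0589, with 166, 212 and 128 FPKM and a distance of 0.04. The table pairs none of these tags with a name.

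TAL1-2 and TAL1-1 have consecutive tags, which allowed a comparison with 4776 pairs of genes with consecutive tags, theirs included. At 24 h the size of the log2 ratio of FPKM + 1 was 7.11 in the transaldolase pair, against 1.31 in the median pair. A larger ratio in either direction than that of the transaldolase pair was found in 0.796%, 1.13% and 6.43% of pairs at the successive times. The change of the ratio was less unusual in size. In the first interval the 0.69 of the transaldolase pair did not reach 2-fold, where 40.6% of the pairs did. The transaldolase pair changed by 2.01 in the second interval, where 39.9% of the pairs reached 2-fold, and by 2.70 over the whole course, where 56.9% did. A larger change than that of the transaldolase pair was found in 12.7% of pairs in the second interval and in 16.4% over the whole course.

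**Figure D4:**
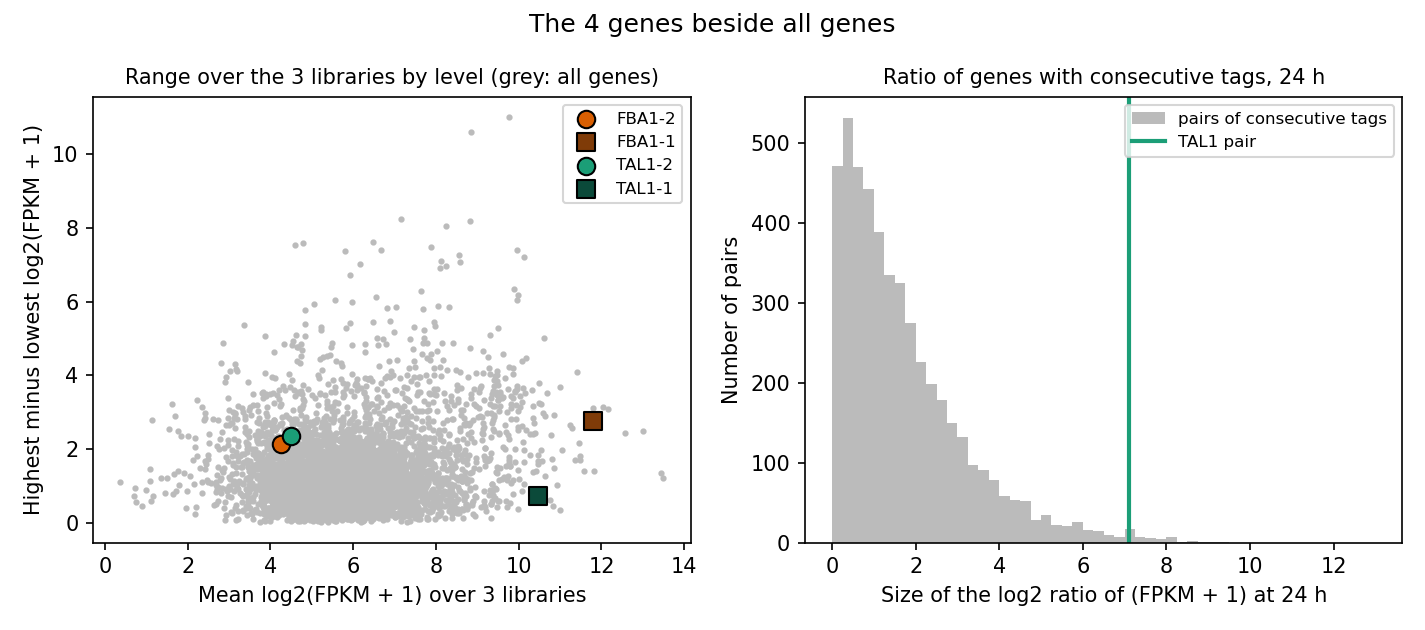
Left, the range of log2(FPKM + 1) over the 3 libraries against its mean for all genes (grey) and the 4 genes, with ranges of 2.13 for FBA1-2, 2.76 for FBA1-1, 2.35 for TAL1-2 and 0.74 for TAL1-1. Right, the number of pairs of consecutive tags by the size of their log2 ratio of FPKM + 1 at 24 h, with a line at 7.11 for the transaldolase pair, beyond which 0.796% of the pairs lie.

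Genes with tags next to the 4 were examined in the same way. Of the 6 tags listed nearest to FBA1-2, 3 on each side, 0 were at least 2-fold higher over the whole course and 2 at least 2-fold lower. Of the 6 nearest to the transaldolase pair, 1 was at least 2-fold higher, 1 at least 2-fold lower and 4 within 2-fold. Levels of these 6 genes lay between 6.20 and 370 FPKM in all libraries, above TAL1-2 in some and below TAL1-1 in all. Of the 6 nearest to FBA1-1, with at most 154 FPKM, 2 were at least 2-fold higher, 1 at least 2-fold lower and 3 within 2-fold. Of all genes, 18.2% were at least 2-fold higher over the whole course, 28% at least 2-fold lower and 53.8% within 2-fold, and counts out of 6 cannot be told from these shares. Of the 18 genes, 0 were at least 2-fold higher in both intervals, near the 2.59% of all genes. Tags give an order of names, and positions on the chromosomes were not used here.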

How the data were processed

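Gene levels were deposited by the authors as FPKM, 1 column per library, per the file headers. CASAVA and HISAT2 2.1.0 are named in the submitters' processing notes. Not given in the sources used here are the quantification program, genome build, annotation, strandedness and any filter. Columns were matched to times by the codes in the sample titles. Depth was looked for in genes under 3 FPKM, 19 to 34 per comparison. Allowing a common scaling, at most 21.1% of their ratios between libraries lay within 0.2% of a ratio of whole numbers up to 6, so whole reads were not recovered.

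A reference table of 5305 genes of Komagataella pastoris ATCC 28485, and not of GS115, matched 0 of the 5040 tags. Names of other pathway genes and sequences were therefore not used here.

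Differences are of log2(FPKM + 1), later minus earlier, among genes that reached 1 FPKM in some library. This filter removed 12 genes. All 4 genes are named, together with the 1 gene nearest in pattern to each. The rule that picks the genes uses tags and no measured value, but the genes, lists and rules were chosen with earlier results of these data known. Alternatives were pseudocounts of 0.1 and 10, no filter, a filter at 10 FPKM, median-of-ratios and trimmed-mean scaling (from each tail, 30% by ratio and 5% by level were trimmed), and a 4-fold rule. The counting, scaling and likeness steps were tested on simulated data. Analyses used Python 3.11.15, numpy 2.4.6, pandas 2.3.3 and matplotlib 3.10.9.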

Additional observations from a re-analysis of the deposited data

How the results depend on the processing

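Of 126 alternative values of differences, ratios and sums of the 4 genes, 112 kept their call, by the rule of size in use, and stayed within 1.5 times of the reported value, 14 did not, and 0 reversed. Part of this tally was fixed in advance. The 4-fold rule reuses the reported values, and a pseudocount cannot turn the sign of a single difference or of a ratio within a library. A reversal was counted only for reported values of at least 1 in size, which leaves out every difference of TAL1-1 and of the transaldolase sum. It also leaves out FBA1-1 and the aldolase sum in the first interval. For the other single genes and sums, the 2 rescalings shifted the median gene by at most 0.25, too little to turn a sign. The lack of reversals among single genes and sums is thus no support for their direction. For the first interval, the second and the whole course in turn, a pseudocount of 10 gave 0.63, 0.81 and 1.43 for FBA1-2 and 0.67, 0.999 and 1.67 for TAL1-2. By construction it shrinks the differences of low genes, and neither gene reached the 2-fold rule in either interval with it. It gave log2 ratios at 24 h of -8.39 for the aldolase pair and -6.20 for the transaldolase pair, and ratio changes over the whole course of 3.98 and 2.01. Under the 4-fold rule, stricter by construction, FBA1-2 (1.05 and 1.07) and TAL1-2 (1.08 and 1.27) were not called in either interval. That rule left, for the same comparisons in order, 131, 142 and 341 genes higher, 261, 149 and 498 lower, and 695, 612 and 1335 pairs of consecutive tags with a changed ratio. The other 48 of 57 alternative counts over all genes and pairs were within 1.5 times of the reported count. No paired analysis was possible because 1 library was made per time, and for the same reason no replicate could be left out. The lack of replicates limits every value, and the unknown depth most those of FBA1-2 and TAL1-2 at 24 h.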
